A study of Mus musculus with 6 samples.

Results

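The genes described here are 7 components of the necroptosis and caspase-8 pathway: the sensor gene Zbp1, the kinase genes Ripk1 and Ripk3, the executor gene Mlkl, the adaptor gene Fadd, the protease gene Casp8 and Cflar, which encodes the caspase-8 regulator c-FLIP. They were taken by gene symbol from the 55450 genes of a table of raw counts, by a rule that names them and uses no measured value, although the choice of genes was made with earlier results of these data known. All 7 passed the filter on low counts, as did 16592 genes in all. Kidney mRNA was sequenced in 3 mice on day 0 and 3 mice on day 21, all wild-type male C57BL/6J mice bought at 7 weeks of age and kept for 1 week before the experiment. The day-21 mice had been gavaged once daily with adenine (0.16 g/kg) together with potassium oxonate (2.4 g/kg), an inhibitor of uricase that raises uric acid. The day-0 mice served as control, and their labels name 20% PEG as the treatment. Since the paper has the controls killed on day 0, the agents cannot be told apart from 21 days of age and of handling. Nor can they be told apart from PEG, which is named for the controls alone. Of the 6 mice the study kept in each group, 3 were sequenced, and each library came from a separate mouse.

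Necroptosis is a lytic form of cell death. Death receptors, Toll-like receptors or the nucleic acid sensor ZBP1 bring RIPK3 into a complex through a shared short motif (RHIM), RIPK3 phosphorylates MLKL, and MLKL breaches the plasma membrane so that the cell content spills out and inflames the tissue. Caspase-8 acts against this route: recruited by FADD and paired with c-FLIP, it cleaves RIPK1 and RIPK3, while as a homodimer it starts apoptosis instead. In the kidney, tubular epithelium and infiltrating leukocytes can both express the machinery, and crystal-induced and ischaemic tubular injury are settings in which it has been studied.

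The total count per mouse lay between 10963849 and 14256556 on day 0 and between 12662200 and 14333311 on day 21, so that 3 counts, taken as the detection floor, stood for 0.179 to 0.309 CPM (counts relative to the TMM-scaled library size, the normalized count used below); this floor covers counting error only. The days were compared with the quasi-likelihood test of edgeR, p was adjusted over all genes tested (Benjamini-Hochberg), and a gene was called where the adjusted p was under 0.05 and the fold exceeded 1.5, the thresholds of the study. By this rule 3249 genes were called higher (19.6% of those tested) and 2572 lower (15.5%). Scaled by library size alone, the share of calls that were higher went from 55.8% to 81.7%, and the median over all genes of the log2 fold change went from 0.03 to 0.42. With upper quartile scaling that median was 0.12. The tissue carried its defining kidney markers, with proximal tubule genes summing to 10138 to 11358 CPM on day 0. Cell type markers differed widely between the days and are given below beside the results they moved with.

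The genes lie on 6 chromosomes of GRCm38 (the mm10 assembly, GENCODE release M21 annotation). Casp8 (chr1:58795374-58847503) and Cflar (chr1:58711508-58758884) are neighbours on the forward strand, with 36489 bases and no protein-coding gene between them. Mlkl (chr8:111311797-111338177), Ripk3 (chr14:55784995-55788865), Zbp1 (chr2:173206612-173218923) and Fadd (chr7:144577318-144582463) are on the reverse strand, and Ripk1 (chr13:34002363-34037147) is on the forward strand. The longest annotated transcript has 11 exons for Ripk1 and for Mlkl, 10 for Ripk3 and for Cflar, 9 for Casp8, 7 for Zbp1 and 2 for Fadd. Exons of Ripk1 share 9.01% of their bases with other genes, and those of Fadd share 6.12% with the antisense gene Faddos. No exon base of the other 5 genes lies in another annotated gene. The strand setting of the counting is not given in the sources used here.

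For Mlkl, Ripk3 and Cflar, the 3 called genes with an entry among the RefSeq promoters of GRCm38.p6, the 250 bases before the start site are shown 5′ to 3′, because these are the genes whose mRNA level moved past the threshold and their promoters can be read against the interferon and NF-kappaB pathways described further on. Capitals would mark a match to any of the motifs searched, and these windows held none. In Mlkl the window is chr8:111338206-111338455 on the reverse strand, in Ripk3 chr14:55788858-55789107 on the reverse strand, and in Cflar chr1:58711241-58711490 on the forward strand. The GENCODE start of Ripk3 lies a few bases upstream of the RefSeq start used here.
Mlkl: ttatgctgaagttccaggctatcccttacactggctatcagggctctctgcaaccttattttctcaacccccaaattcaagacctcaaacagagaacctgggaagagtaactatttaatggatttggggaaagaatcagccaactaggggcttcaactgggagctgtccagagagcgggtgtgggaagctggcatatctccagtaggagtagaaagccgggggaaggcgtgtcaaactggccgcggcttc
Ripk3: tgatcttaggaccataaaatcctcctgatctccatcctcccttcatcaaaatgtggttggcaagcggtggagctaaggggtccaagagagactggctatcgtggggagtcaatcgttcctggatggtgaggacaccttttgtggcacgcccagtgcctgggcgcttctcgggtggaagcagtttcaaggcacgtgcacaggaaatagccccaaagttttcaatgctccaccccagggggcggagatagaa
Cflar: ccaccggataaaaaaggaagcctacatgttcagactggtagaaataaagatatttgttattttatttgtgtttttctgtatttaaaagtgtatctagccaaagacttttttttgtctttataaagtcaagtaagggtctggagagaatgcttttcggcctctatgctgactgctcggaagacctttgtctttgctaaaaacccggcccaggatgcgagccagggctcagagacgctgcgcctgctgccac

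The motifs searched on either strand were the interferon-stimulated response element (GAAANNGAAA), the gamma-activated site (TTCNNNGAA) and the kappaB element. The interferon-stimulated response element was present in 2.98% of all 32851 promoter windows of this length, the gamma-activated site in 7.02% and the kappaB element in 3.90%. Among the 7 interferon genes searched as a comparison, 4 held the first motif, 1 the second and 1 the third. A gene was counted here if any of its windows matched, while the percentages are per window. Of the 7 pathway genes, 6 had a promoter entry. The matches found were 2 gamma-activated sites (TTCCCGGAA), 108 and 11 bases before the second annotated start of Ripk1, a gene that was not called. A match describes the letters of the window and is not evidence of binding.

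In the day-21 kidneys, the sensor and the executor of necroptosis had the largest fold changes of the 7 genes. Zbp1 rose 12.7-fold, Mlkl 7.35-fold and Ripk3 2.53-fold, while Cflar fell 1.74-fold. Casp8, Fadd and Ripk1 were not called. Thus 3 of 7 genes were called higher, beside 19.6% of all genes tested, and 1 of 7 lower, beside 15.5%. The day-21 mice all lay above the day-0 mice for 5 of the 7, where this held for 30.7% of all genes, and all below them for 1, where it held for 26.4%. The median log2 fold change of the 7 was 0.47, against 0.03 for all genes tested. With 3 mice against 3, a two-sided exact permutation test cannot go below p = 0.1, and it gave this value for each of the 7 except Ripk1. The calls therefore rest on the edgeR model, whose error is the spread between the sequenced mice, moderated with that of all genes tested.

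**Figure D1:**
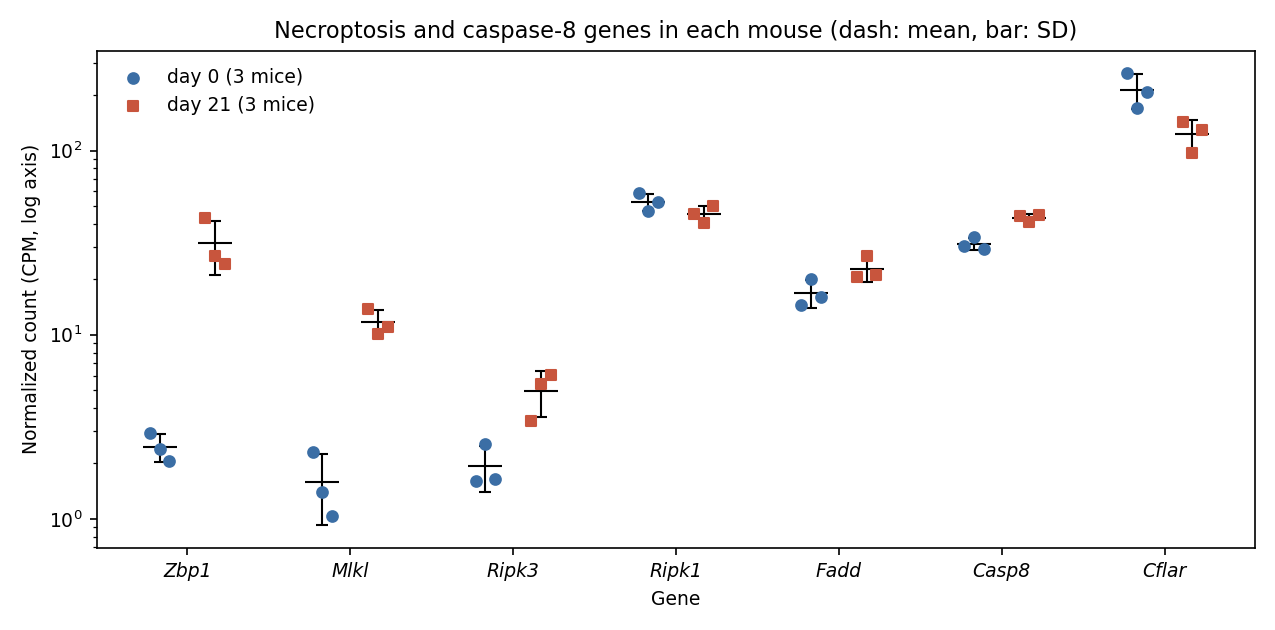
Normalized count (CPM, log axis) of the 7 genes in each of 3 day-0 mice (circles) and 3 day-21 mice (squares), with the mean (dash) and SD (bar). Zbp1, Mlkl and Ripk3 lie at 1.03 to 2.91 CPM in all day-0 mice and higher in every day-21 mouse, Cflar lies lower in every day-21 mouse, and the groups overlap for Ripk1.

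Zbp1, whose product binds left-handed double-stranded nucleic acid and engages RIPK3, showed the largest change of the 7. On day 0 the 3 mice had 29, 29 and 20 counts, against 608, 450 and 395 on day 21. Normalized, they were 2.91, 2.39 and 2.06 CPM on day 0 and 43.0, 26.8 and 24.2 CPM on day 21. All day-21 mice stood far above the day-0 mice, and the first of them stood above the other two. The mean rose from 2.45 ± 0.427 CPM (SD, n = 3) to 31.3 ± 10.2 CPM (SD, n = 3). The log2 fold change was 3.67 (SE 0.27, 95% confidence interval 3.07 to 4.27, edgeR adjusted p = 4.84e-06), higher than that of 98.7% of all genes tested.

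Mlkl encodes the pseudokinase that executes necroptosis. It had few counts on day 0, at 23, 17 and 10, and reached 196, 170 and 179 by day 21. These were 2.31, 1.40 and 1.03 CPM against 13.9, 10.1 and 10.96 CPM. The lowest day-21 mouse was several times the highest day-0 mouse, and the groups did not overlap. The mean went from 1.58 ± 0.656 CPM (SD, n = 3) to 11.7 ± 1.95 CPM (SD, n = 3). The log2 fold change was 2.88 (SE 0.30, 95% confidence interval 2.22 to 3.54, edgeR adjusted p = 3.59e-05), higher than that of 97.2% of all genes tested.

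Ripk3, the kinase that phosphorylates MLKL, rose less. Its counts were 16, 31 and 16 on day 0 and 48, 91 and 98 on day 21. In CPM this was 1.60, 2.56 and 1.65 against 3.39, 5.43 and 6.00, so that the groups lay apart, with the first day-21 mouse nearest to day 0. The mean rose from 1.94 ± 0.537 CPM (SD, n = 3) to 4.94 ± 1.37 CPM (SD, n = 3). The log2 fold change was 1.34 (SE 0.33, 95% confidence interval 0.60 to 2.08, edgeR adjusted p = 0.00784). At so few counts the interval of the fold is wide, from 1.52 to 4.22.

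Ripk1, which is a scaffold for survival signalling as well as a kinase for death, did not pass the test. Day-0 mice held 583, 573 and 507 counts, and day-21 mice 637, 677 and 814. The normalized counts were 58.5, 47.2 and 52.3 CPM on day 0 and 45.0, 40.4 and 49.9 CPM on day 21, and the groups overlapped. Its log2 fold change of -0.22 (SE 0.13, edgeR adjusted p = 0.176) had a 95% confidence interval from -0.50 to 0.06, that is a fold between 0.706 and 1.04, and its sign turned with library size alone (0.16). The exact permutation test gave p = 0.2. Of its exon bases, 6.12% are shared with the pseudogene Gm17084 on the same strand, which had 0 counts in all 6 mice, and 2.89% with Serpinb6a on the opposite strand, which was called higher (log2 fold change 1.01).

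Of the genes of the caspase-8 complex, Cflar alone was called. Fadd, the adaptor that links death receptors to caspase-8, showed 144, 244 and 156 counts among day-0 mice against 291, 449 and 345 among day-21 mice. In CPM it was measured at 14.4, 20.1 and 16.1 against 20.6, 26.8 and 21.1. The groups did not overlap, but the highest day-0 mouse lay just under the lowest day-21 mouse. The mean was 16.9 ± 2.92 CPM (SD, n = 3) on day 0 and 22.8 ± 3.44 CPM (SD, n = 3) on day 21. With a log2 fold change of 0.43 (SE 0.17, 95% confidence interval 0.05 to 0.81, edgeR adjusted p = 0.0602), Fadd missed both thresholds. The antisense gene Faddos, with which it shares 239 exon bases, had a log2 fold change of 0.09 and was not called.

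For Casp8, 304, 411 and 283 counts on day 0 stood against 620, 687 and 726 on day 21. The values of 30.5, 33.9 and 29.2 CPM on day 0 were all below those of 43.8, 41.0 and 44.5 CPM on day 21, and the mice of a group lay close together. The mean went from 31.2 ± 2.43 CPM (SD, n = 3) to 43.1 ± 1.85 CPM (SD, n = 3). The log2 fold change of 0.47 (SE 0.11, 95% confidence interval 0.21 to 0.72) passed the test on its p (edgeR adjusted p = 0.0073), and its fold of 1.38 stayed under the fold threshold. Under scaling by library size alone, Casp8 and Fadd were both called higher, with log2 fold changes of 0.86 and 0.83, and the median of all genes was then 0.42.

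Cflar, the most abundant of the 7 in counts, was the gene called lower. Its counts of 2617, 2075 and 2027 on day 0 and 2011, 1622 and 2122 on day 21 came to 262, 171 and 209 CPM against 142, 96.8 and 130 CPM. The normalized groups did not overlap, although mice of the same day differed by more than for Casp8. The mean fell from 214 ± 45.9 CPM (SD, n = 3) to 123 ± 23.5 CPM (SD, n = 3). The log2 fold change was -0.80 (SE 0.18, 95% confidence interval -1.20 to -0.40, edgeR adjusted p = 0.00479). The call was lost with library size alone, at a log2 fold change of -0.42 (edgeR adjusted p = 0.0688), and under a stricter rule (adjusted p under 0.01, fold over 2).

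**Figure D2:**
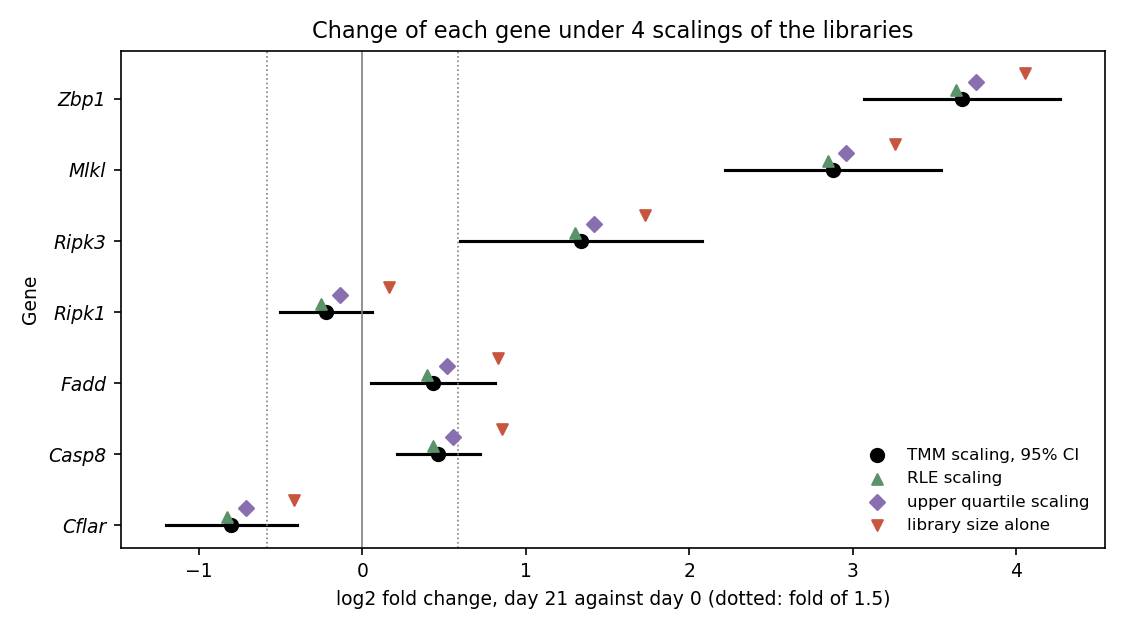
Log2 fold change of day 21 against day 0 for the 7 genes, with the 95% confidence interval of the edgeR fit on TMM-scaled libraries (circles and lines) and the estimates under 3 other scalings (triangles and diamonds), dotted lines marking a fold of 1.5. Zbp1, Mlkl and Ripk3 lie to the right of the dotted line under each scaling, and Ripk1 lies on either side of 0, at -0.22 with TMM scaling and 0.16 with library size alone.

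The mRNA of unseparated kidney tissue was measured, in which fewer cells of a type and less RNA per cell cannot be told apart. The paper has the kidneys divided and names no region for the RNA. Markers of several cell types moved with these genes. The 8 macrophage markers, among them Adgre1, Csf1r and C1qa, were all called higher and summed to 165 to 212 CPM on day 0 and 934 to 1257 CPM on day 21. The 6 T cell markers were all called higher, from 4.01 to 9.15 CPM on day 0 to 24.7 to 27.5 CPM on day 21. Those of injured tubule, such as Havcr1 and Lcn2, went from 23.5 to 60.9 CPM to 1890 to 2298 CPM (4 of 4 called higher), and those of fibroblasts from 147 to 250 CPM to 818 to 1596 CPM (5 of 5). The 6 proximal tubule markers were all called lower, and their sum lay at 2074 to 2536 CPM on day 21. Their part in the changes of Zbp1, Mlkl, Ripk3 and Cflar was not tested.

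Other lists moved less or the other way. The distal nephron markers summed to 6464 to 7589 CPM on day 0 and 3976 to 4489 CPM on day 21 (4 of 5 called lower). Endothelial markers summed to 391 to 455 and 185 to 313 CPM (2 of 5 called lower), and podocyte markers to 181 to 298 and 146 to 164 CPM (2 of 4). Defining markers of neutrophils (Ly6g, Camp) and of B cells (Ms4a1) had at most 5 counts in any mouse. Of the neutrophil markers Mpo had 0 counts in every mouse, S100a8 and S100a9 were called lower, and the sum was 8.35 to 20.2 CPM on day 0 and 2.86 to 4.53 CPM on day 21. The B cell markers summed to 0.928 to 2.97 CPM and 2.21 to 4.06 CPM, and the 1 of the 4 that could be tested was not called.

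Whether the genes of the pathway changed relative to each other was asked within each mouse, from the ratio of their counts, which does not depend on the scaling of the libraries. Ratios were compared as log2 values with 0.5 added to each count, by a two-sided exact permutation test over 8 pairs chosen for their place in the pathway. No ratio could pass an adjusted p of 0.05 in this design, since the smallest p of 0.1 came to 0.133 after Benjamini-Hochberg adjustment over the 8 pairs. That value was reached by 6 of the 8.

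The count of Cflar per count of Casp8, whose products form a heterodimer, came to 8.60, 5.04 and 7.15 on day 0 against 3.24, 2.36 and 2.92 on day 21. The ratio was thus 2.40-fold lower on day 21 (log2 difference -1.26), with every day-21 mouse below every day-0 mouse (exact permutation p = 0.1). Mlkl per Casp8, executor against brake, was 0.0772, 0.0425 and 0.0370 on day 0 and 0.317, 0.248 and 0.247 on day 21, which is 5.42-fold higher. Ripk3 per Casp8 differed less, being 1.80-fold higher (log2 difference 0.85), without overlap. Fadd per Casp8 stayed within the spread of the mice, with log2 means of -0.89 ± 0.165 and -0.93 ± 0.270 (SD, n = 3 each, exact permutation p = 0.9).

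Within the necroptosis arm the rises were unequal. Ripk3 per Ripk1 was 0.0283, 0.0549 and 0.0325 on day 0 and 0.0761, 0.135 and 0.121 on day 21, or 2.91-fold higher. Mlkl per Ripk3 was 1.42, 0.556 and 0.636 on day 0 and 4.05, 1.86 and 1.82 on day 21, or 3.01-fold higher. These groups lay apart, with the first mouse of each day above the other two for the second ratio. Zbp1 per Ripk3 was 4.92-fold higher, from 1.79, 0.937 and 1.24 to 12.5, 4.92 and 4.02. Ripk1 per Fadd had a log2 difference of -0.66, and its groups overlapped (exact permutation p = 0.2, 0.229 adjusted).

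**Figure D3:**
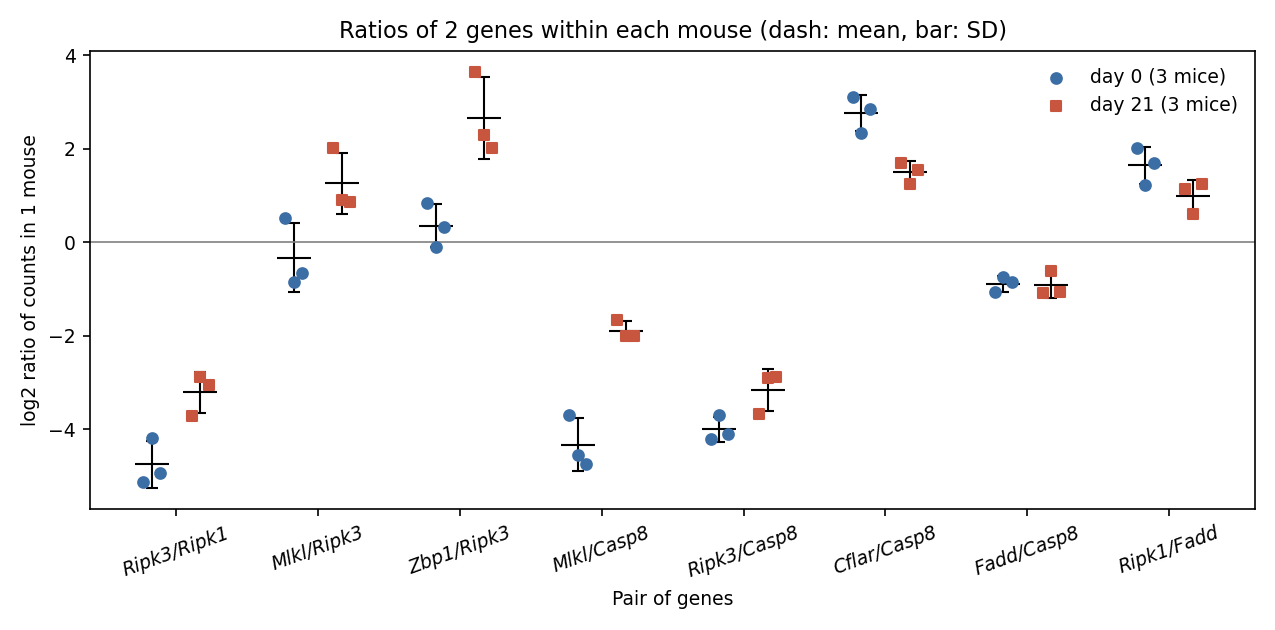
Log2 ratio of the counts of 2 genes within each mouse for 8 pairs, in 3 day-0 mice (circles) and 3 day-21 mice (squares), with the mean (dash) and SD (bar). The groups lie apart for 6 pairs, with Cflar/Casp8 lower and the other 5 higher on day 21, and overlap for Fadd/Casp8 and Ripk1/Fadd.

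The abundance of the genes relative to each other was read per length, as TPM, the counts per exon base scaled to a common sum in each mouse. This scale serves to order genes within a day, since it is not TMM-scaled between days. On day 0 the level per length of Cflar was 37.0 ± 9.62 TPM (SD, n = 3), followed by Casp8 with 23.4 ± 0.941, Ripk1 with 13.8 ± 2.13 and Fadd with 9.35 ± 1.11. The ranges of each of these neighbours in the order did not overlap. At the lower end, Ripk3 at 1.82 ± 0.402 TPM, Zbp1 at 1.51 ± 0.307 and Mlkl at 1.501 ± 0.675 (SD, n = 3 each) overlapped and could not be ordered. In the control kidney, Casp8 and its partners and Ripk1 thus all stood above the 3 genes that sense and carry out necroptosis.

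On day 21 the order was another. Casp8 had a level per length of 46.7 ± 1.75 TPM and Cflar one of 30.4 ± 5.43 TPM (SD, n = 3 each), without overlap, so that Casp8 exceeded Cflar in 3 of 3 mice where Cflar had exceeded Casp8 in 3 of 3 on day 0. Next came Zbp1 at 27.7 ± 8.53 TPM, with Fadd at 18.4 ± 2.99, Ripk1 at 16.9 ± 1.76 and Mlkl at 15.8 ± 2.38 (SD, n = 3 each). From Cflar down to Mlkl, each gene overlapped the next. Ripk3 was the lowest at 6.77 ± 1.96 TPM, without overlap with Mlkl. The change of order between Casp8 and Cflar depended on the length used. With the longest transcript in place of all exon bases, Cflar was the highest on both days, at 59.6 and 47.1 TPM against 21.9 and 42.0 TPM for Casp8.

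As shares of the summed level per length of the 7 genes, Zbp1 went from 1.71 ± 0.178% on day 0 to 16.9 ± 4.15% on day 21, and Mlkl from 1.66 ± 0.552% to 9.70 ± 0.790% (SD, n = 3 each). The share of Ripk3 was 2.11 ± 0.699% and 4.22 ± 1.40%. Together these 3 genes of the necroptosis arm held 5.68%, 6.25% and 4.52% on day 0, against 34.7%, 30.0% and 27.8% on day 21. Fadd, Casp8 and Cflar held 79.0 ± 0.366% and 58.7 ± 2.58% (SD, n = 3 each). Within them the share of Cflar went from 41.4 ± 5.80% to 18.6 ± 2.28%, while Casp8 held 26.7 ± 3.45% and 28.8 ± 1.79%. Ripk1 went from 15.6 ± 0.744% to 10.4 ± 1.11%. These shares describe the make-up within a mouse and were not tested. They take all exon bases as the length and depend on that choice. With the longest transcript as length, Cflar still stood above Casp8 on day 21 (47.1 against 42.0 TPM).

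**Figure D4:**
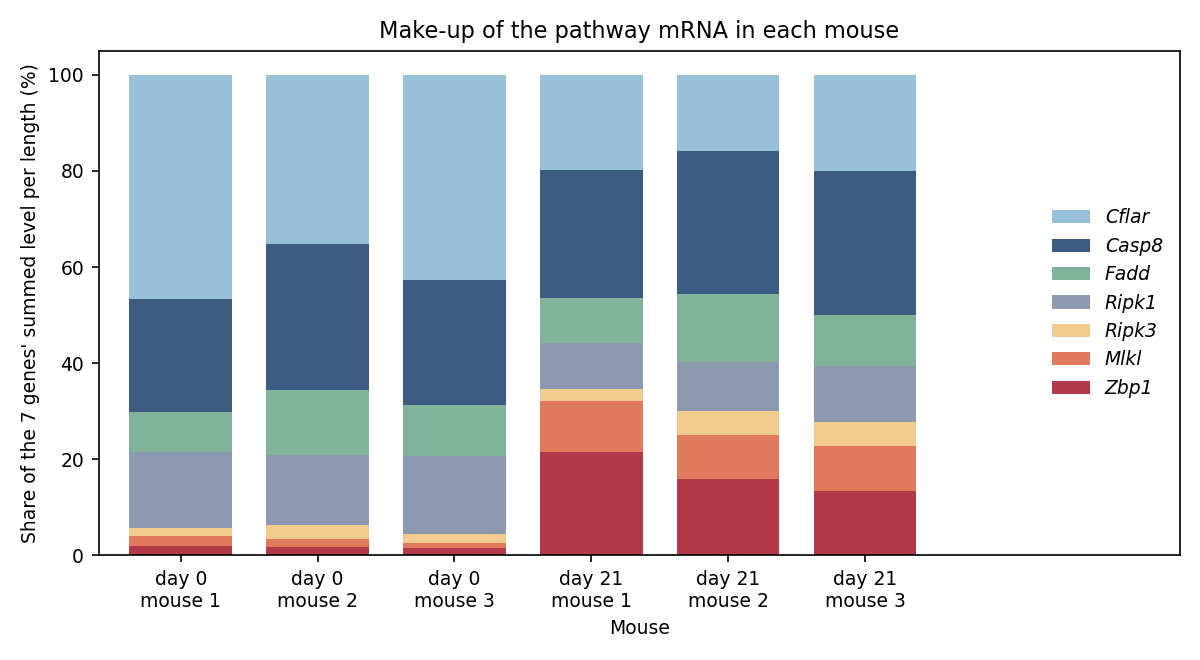
Share of each gene in the summed level per length (%, all exon bases as length) of the 7 genes, one bar per mouse, 3 mice of day 0 and 3 of day 21. The shares of Zbp1 and Mlkl are each at most 2.25% in the day-0 mice and at least 9.20% in the day-21 mice, and that of Cflar is at least 35.1% on day 0 and at most 20.0% on day 21.

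Genes around the pathway were described from 8 lists with 64 genes, of which 62 were tested. In all, 24 were called higher (38.7%, beside 19.6% of all genes), 3 lower (beside 15.5% of all genes) and 35 not. Their median log2 fold change was 0.36 beside 0.03. The lists were chosen with earlier results of these data known, so their counts are descriptions. The counts of each list below stand beside the same shares of all genes tested, 19.6% called higher and 15.5% lower.

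At the start of the pathway stand the death ligands and their receptors. Of 9 genes 7 were tested, 4 were called higher and 3 were not called, and the median log2 fold change was 0.64. Tnf, the ligand that opens the classical route, had 0 counts in all day-0 mice and 27, 29 and 18 on day 21, so that it was at least 5.53-fold higher against a floor of 3 counts per library. Its receptor genes were called higher too, Tnfrsf1b with a log2 fold change of 2.30 (7.52 ± 1.04 to 36.9 ± 1.69 CPM, SD, n = 3 each) and Tnfrsf1a, the receptor with a death domain, with 0.64. The call of Tnfrsf1a was lost without day-0 replicate 2 (0.58) or 3 (0.44) and without day-21 replicate 1 or 3 (0.63 each). The receptor for the TRAIL ligand, Tnfrsf10b, had a log2 fold change of 1.47 and was called. Its ligand gene Tnfsf10 (0.35), the death receptor gene Fas (0.18) and the adaptor gene Tradd (0.38) were not. Lta and Fasl had too few counts to be tested.

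Of the 4 genes that sense nucleic acid, lead from Toll-like receptors to RIPK3 or edit double-stranded RNA, 2 were called higher. Tlr3, an endosomal sensor of double-stranded RNA, rose from 8.86 ± 0.451 to 25.6 ± 3.40 CPM (SD, n = 3 each, log2 fold change 1.53). Adar, whose product edits double-stranded RNA and keeps it from ZBP1, had a log2 fold change of 1.19. Tlr4 (0.66) and Ticam1 (-0.17), the RHIM adaptor of Toll-like receptors, were not called, and Ticam1 turned sign with library size alone (0.22). Tlr4 was called higher with library size alone or without day-0 replicate 3 (1.05 each), with limma-voom (0.81) and without the filter (0.67).

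The ubiquitin ligases that keep RIPK1 in its survival complex had a median log2 fold change of 0.41, and 3 of 8 were called higher. These were the cIAP genes Birc3 (log2 fold change 2.11, 12.7 ± 4.39 to 54.7 ± 5.47 CPM, SD, n = 3 each) and Birc2 (1.38) and their partner Traf2 (0.64), whose fold fell under the threshold without day-0 replicate 1 (0.52). The genes of the linear ubiquitin chain complex were not called, with log2 fold changes of 0.28 for Rnf31, 0.20 for Rbck1 and 0.02 for Sharpin, the last of which was -0.02 with RLE scaling. Of the 5 genes that remove or edit ubiquitin, 2 were called higher. They were Tnfaip3, which encodes the NF-kappaB feedback inhibitor A20 (log2 fold change 1.65), and its partner Tnip1 (0.82). Cyld (-0.08) and its adaptor Spata2 (-0.14) were not called, and both were above 0 with library size alone, while Otulin was at 0.18.

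The kinases and adaptors that hold RIPK1 in check had a median log2 fold change of 0.20, and 9 of 11 were not called. In 5 of the 11 all day-21 mice lay above all day-0 mice, beside 30.7% of all genes tested. With library size alone 6 of 11 were called higher, beside 5985 of all 16592 genes tested. Ikbke, which encodes a kinase of the interferon pathway, was called higher at 2.27 (2.66 ± 0.810 to 12.7 ± 3.29 CPM, SD, n = 3 each). Chuk, the gene of the IKK alpha subunit, was called lower at -1.12 (179 ± 16.5 to 82.8 ± 10.6 CPM, SD, n = 3 each). The 9 others lay between -0.23 for Tbk1 and 0.44 for Tab1, and Tbk1 turned to 0.15 with library size alone.

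Genes reported to act on MLKL or on membrane repair after it had a median log2 fold change of -0.11. By edgeR, DESeq2 or limma-voom, 0 of 8 were called, where edgeR called 19.6% of all genes higher and 15.5% lower. An unadjusted edgeR p under 0.05 was found for 1 higher and 3 lower, and no share of all genes is given for it. Ppm1b, which encodes a phosphatase of RIPK3, had a log2 fold change of -0.44 (edgeR adjusted p = 0.0075), and Chmp4b, a component of the ESCRT repair machinery, one of 0.52 (edgeR adjusted p = 0.00331). Both stayed under the fold threshold with TMM scaling, and Chmp4b passed it with upper quartile scaling (0.61) and library size alone (0.91). Mlkl itself, at 2.88, lay outside the whole range of this list, which ran from -0.45 to 0.52.

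Of the other caspase genes and those of the mitochondrial arm of apoptosis, 4 of 11 were called higher and 2 lower. Over all genes tested these shares were 19.6% and 15.5%. Among the genes called higher were the pore formers Bak1 (log2 fold change 1.45, 21.5 ± 0.658 to 58.6 ± 1.53 CPM, SD, n = 3 each) and Bax (1.05) and the apoptosome scaffold Apaf1 (0.95). Lower were Cycs, which encodes cytochrome c of the respiratory chain (-0.95), and Bid (-0.65), whose product is cleaved by caspase-8. Both calls were lost with library size alone, at -0.56 for Cycs and -0.26 for Bid. That of Bid was also lost with upper quartile scaling and without day-0 replicate 3 (-0.57 in both). Casp2 (0.38, edgeR adjusted p = 0.0391) stayed under the fold threshold with TMM scaling and was called higher with library size alone (0.775).

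All 8 interferon genes were called higher, with a median log2 fold change of 2.36. The largest was that of Irf7, the transcription factor that amplifies the interferon response, which went from 18.4 ± 2.26 to 340 ± 78.0 CPM (SD, n = 3 each, log2 fold change 4.21). Isg15 (3.77), Ifit1 (3.69) and Ifit3 (2.88), all interferon-induced effectors, followed, and signalling genes were at 1.84 for Stat2, 1.64 for Irf9 and 1.22 for Irf1. Zbp1, itself known as an interferon-induced gene, had a log2 fold change of 3.67 in the same comparison.

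**Figure D5:**
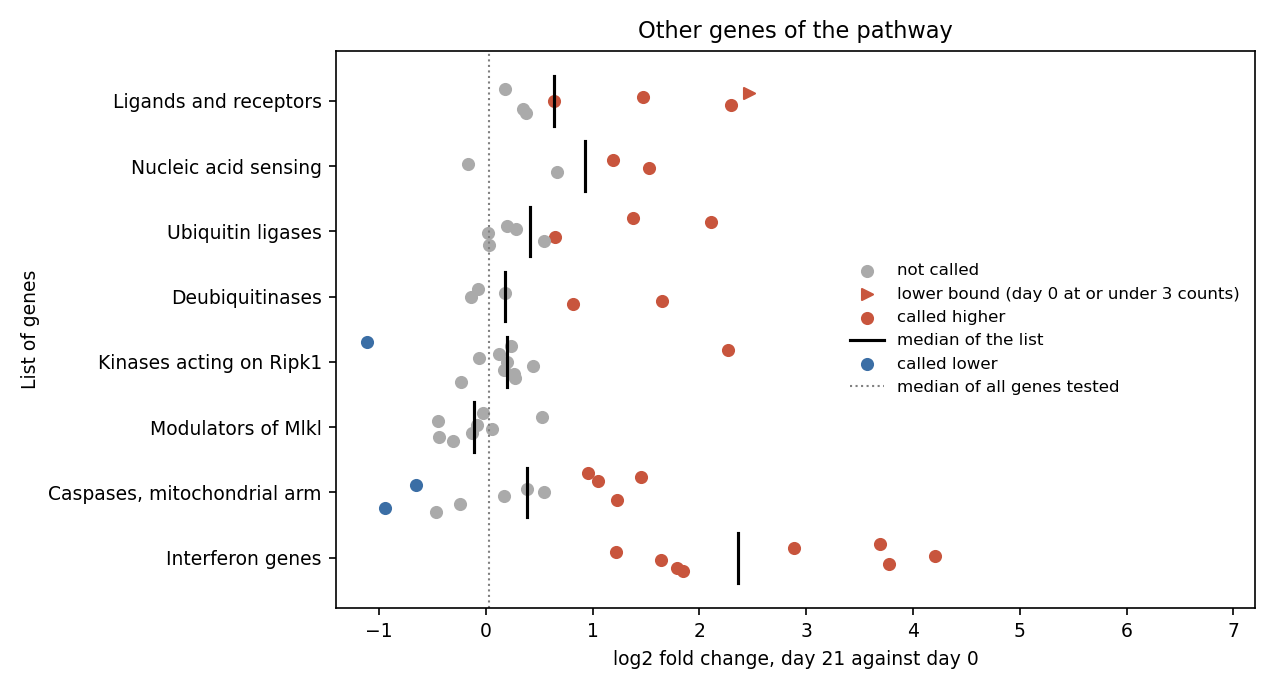
Log2 fold change of day 21 against day 0 for 62 genes in 8 lists around the pathway, with genes called higher, called lower or not called in separate colours, the median of each list (black line) and of all genes tested (dotted, 0.03). The triangle is the lower bound of Tnf, and all 8 interferon genes lie at 1.22 or above, while the modulators of Mlkl lie between -0.45 and 0.52.

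For each of the 7 genes, the protein-coding gene whose log2 CPM followed it most closely over the 6 mice was sought among 11390 genes with a mean of at least 5 CPM. The gene most like Zbp1 was Mfap3 (Pearson r = 0.999 over 6 mice), and 922 genes had an r over 0.95 with Zbp1. An r does not measure the size of a change, as the log2 fold change was 0.48 for Mfap3 and 3.67 for Zbp1. For Mlkl it was Msn (r = 0.9997), which encodes the cytoskeletal linker moesin and went from 214 to 517 CPM, with 790 genes over 0.95. Casp8 was nearest to Id3 (r = 0.998, 472 genes over 0.95) and Ripk3 to Dynll1 (r = 0.994, 159 genes). Cflar was nearest to Aak1 (r = 0.997, 185 genes), Fadd to Mapre3 (r = 0.996, 61 genes) and Ripk1 to Tmem252 (r = 0.997, 23 genes). The 6 points are 3 mice of each day and share their libraries, so for the genes with separate groups a high r holds the difference between the days. These correlations are a description, each the highest of many.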

How the data were processed

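Kidney RNA from 3 day-0 and 3 day-21 mice was analysed. The authors sequenced paired-end libraries and deposited a table of raw counts for every gene and mouse, not normalized. The submitters' processing notes name TopHat and the mm10 build. The counting program and its strand setting are not given in the sources used here. Gene identifiers matched GENCODE mouse release M21 (GRCm38).

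The analysis used edgeR 4.0.16 under R 4.3.3: filterByExpr (minimum count 10, minimum total 15), TMM scaling and the quasi-likelihood test, with p adjusted over 16592 genes (Benjamini-Hochberg). Calls took the study's thresholds (adjusted p under 0.05, fold over 1.5). Alternatives were DESeq2 1.42.0, limma-voom (limma 3.58.1), other scalings, filters and thresholds, a replicate block and leaving out each mouse. The steps were tested on simulated data with as many genes raised as lowered, which does not test the choice of scaling. Motifs and figures were made in Python 3.11.15 with RefSeq promoters. The 7 genes and all lists were chosen with earlier results of these data known. Named genes are these, genes of the lists, the most similar gene of each, and genes sharing their exons; a few are not reported here. No pair of mice was a duplicate.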

Additional observations from a re-analysis of the deposited data

How the results depend on the processing

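Zbp1, Mlkl and Ripk3 were called higher under each alternative run, with log2 fold changes of 3.38 to 4.05, 2.65 to 3.26 and 1.18 to 1.73. Scaling by library size alone changed most: 5 of the 7 genes were called higher and 0 lower, with Casp8 at 0.856, Fadd at 0.829, Cflar at -0.418 (edgeR adjusted p = 0.0688) and Ripk1 reversed to 0.164. Of the pathway genes 38 were then higher and 1 lower, and of all genes 5985 and 1338. Under it Ticam1 (0.219), Cyld (0.310), Spata2 (0.249), Map3k7 (0.325), Tbk1 (0.153), Pgam5 (0.259), Stub1 (0.081), Itpk1 (0.303), Chmp2a (0.367) and Casp9 (0.150) also turned above 0, as that scaling shifts all genes upward. At stricter thresholds (adjusted p under 0.01, fold over 2), 0 of the 7 genes were lower, 1 pathway gene was lower, and 1918 and 1254 of all genes were called. Sharpin was at -0.0185 with RLE scaling and -0.0188 with DESeq2. With upper quartile scaling Cyld was at 0.0106, Map3k7 at 0.0261 and Chmp2a at 0.0623. None of these genes but Cflar was called with TMM scaling.

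Leaving out each mouse in turn kept 3 of the 7 genes called higher and 1 lower each time, with 23 to 27 pathway genes higher and 2 to 4 lower, and 2844 to 3242 of all genes higher and 2283 to 2708 lower. The log2 fold changes then ran from -0.941 to -0.648 for Cflar, 0.401 to 0.529 for Casp8, 0.303 to 0.582 for Fadd and -0.299 to -0.147 for Ripk1. Values near 0 changed sign, namely Sharpin (-0.0789 to 0.111), Map3k7 (-0.144 to 0.0216), Xiap (-0.0611 to 0.0896), Chmp2a (-0.131 to 0.0402), Cyld (-0.189 to 0.0211) and the Fadd/Casp8 ratio (-0.187 to 0.0519 on the log2 scale). The other 7 ratios kept their direction. Tnfsf10 (0.616) and Traf5 (0.765) were called without day-0 replicate 3, and Tab1 (0.590) and Ipmk (-0.587) without day-0 replicate 2.

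The replicate numbers gave no firm sign of pairing. Mice of different days with the same replicate number had correlations of their deviations of -0.019, 0.165 and 0.0896, and the numbers are not said to mark a shared batch or litter. The fit with the replicate block called 3 of the 7 genes higher and 1 lower, 25 and 3 pathway genes, and 3235 and 2523 of all genes. Tlr4 was called in it (0.733). With the block, the edgeR adjusted p was 0.000405 for Cflar and 0.0298 for Fadd, whose fold stayed under the threshold. The highest correlation between days was that of day-0 replicate 2 with day-21 replicate 2 (0.165). Day-0 replicate 3 correlated best with day-21 replicate 1 (0.116), not with its own number. At these depths the day-0 counts of Mlkl and Ripk3, 10 to 31 per mouse, limit the precision of their folds, and genes such as Lta and Fasl could not be tested.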
